A study of Mus musculus with 24 samples.

Results

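The signals of 34 genes of myeloid and dendritic cells were examined in immature mouse thymocytes of the stages DN1, DN2 and DN3. The genes were taken from a list of growth factor receptors, Fc receptors, pattern recognition receptors, granule proteins, lysosomal proteins, oxidase subunits and transcription factors, and each was read from its probe set with the highest mean signal over all 24 arrays. All 34 of 34 listed genes had a probe set, of 18194 genes with a probe set of their own in the series. Of the 30 members that passed the filter on low signals, some of them only through their DN1 signals, 27 were lower at DN2 than at DN1, against 31.2% of all probe sets tested. At DN3, 28 were lower than at DN1, against 25.0% of all. Between genotypes 0 members passed at any stage after adjustment, where hardly any probe set did (0.0037% at DN1, 0.0037% at DN2 and 0.0185% at DN3).

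Myeloid and dendritic cells engulf and digest microbes, present antigen and clear dying thymocytes in the thymus. Their precursors depend on colony-stimulating factors, signal through adaptors that carry an activation motif called ITAM, and load granules and lysosomes with proteases and antimicrobial proteins under the control of factors such as PU.1, C/EBP proteins and IRF8. The earliest thymic progenitors keep some potential for the myeloid fate, which is lost as cells commit to the T lineage between DN2 and DN3.

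Signals were measured on Affymetrix Mouse Genome 430 2.0 arrays, with 1 array for each stage of each pool. The 4 TLX1 pools came from IgHμ-TLX1Tg Prkdc Scid/Scid mice, in which the human homeobox gene TLX1 (HOX11 in the labels) is driven by the IgHμ promoter, an element typical of B cells that is also weakly active in thymocytes and myeloid progenitors. The 4 control pools came from Prkdc Scid/Scid mice, so both genotypes lack a working DNA-PK catalytic subunit and cannot complete antigen receptor rearrangement. All mice were labelled as outbred ICR and 6 to 8 weeks old and had no overt disease, although the TLX1 line was bred on the CD1 background before it was crossed with CB17 ICR mice that carry the Prkdc mutation. The study's methods put the lower end of the age range below that of the labels. Each pool held 2 to 5 animals of 1 sex and 1 genotype, with females in TLX1 pools 1 and 4 and in control pools 2 and 4.

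The sort used antibodies to CD25, CD44, CD4 and CD8, and the labels name no antibody to a myeloid, dendritic or natural killer (NK) cell antigen. CD44, which marks the DN1 gate, is carried by many kinds of leukocytes. In bulk RNA, fewer cells of a type and less RNA per cell cannot be told apart. The study's own sort records list many cells outside the gates in TLX1 pool 2 and control pool 3, and results that rest on these pools are given with and without them.

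Across the series, the Y-linked genes read on the 12 arrays of female pools gave signals of at most 13.81, which serves below as a reference for background. Of 12 T lineage genes 10 were higher and 1 lower at DN2 than at DN1, and their mean log2 signal at DN1 was highest in TLX1 pool 2 (10.22) and control pool 3 (10.27), against 8.50 to 9.22 in the other pools. Markers of NK cells were bright at DN1 in both genotypes, with a mean log2 signal of 10.50 to 11.42 in TLX1 pools and 10.03 to 11.49 in control pools over 9 genes. Mast cell and basophil markers averaged 6.75 to 7.81 in TLX1 pools and 6.38 to 7.48 in control pools, and B lineage markers averaged 3.93 to 4.41 in TLX1 pools and 3.59 to 4.12 in control pools. The 3'/5' signal difference of control transcripts, an index of RNA integrity, was lower in TLX1 than in control arrays at DN3 (0.18 ± 0.11 in TLX1 pools against 0.53 ± 0.03 in control pools, SD, n = 4 each, exact two-sided permutation p = 0.0286, the smallest that 4 pools against 4 allow). Its mean was also lower in TLX1 pools at DN1 (0.06 ± 0.07 against 0.26 ± 0.16, permutation p = 0.0857) and at DN2 (0.22 ± 0.11 against 0.52 ± 0.33, permutation p = 0.0571). The part of this index in the results was not tested beyond the fit with the index as a covariate.

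Promoter windows from RefSeq (build GRCm38.p6, from 250 bases before to 50 bases after the transcript start) were at hand for 27 of the 34 members. The PU.1 site GAGGAAGT, on either strand, was present in the windows of 6 members (Ctss, Elane, Mpo, Prtn3, S100a8 and Tlr9). That was 6 of 30 member windows, against 3.2% of all 32851 windows of this length. The C/EBP motif TTGCNNAA, also on either strand, occurred in 4 members (Cd68, Fcgr3, S100a9 and Siglech), in 5 of 30 member windows against 10.8% of all windows. No member's window held both motifs. Elane and Prtn3 are neighbours on chromosome 10, so their windows are not independent. The windows below belong to 5 of the 6 granule and alarmin genes, the group with the largest differences between pools at DN1. The window of Ctsg, the other gene of the group, held neither motif and is not shown. Capitals mark the PU.1 site or, in S100a9, the C/EBP motif. A match is a description of letters and not a measured site.
Prtn3, chr10:79879417-79879716, plus strand: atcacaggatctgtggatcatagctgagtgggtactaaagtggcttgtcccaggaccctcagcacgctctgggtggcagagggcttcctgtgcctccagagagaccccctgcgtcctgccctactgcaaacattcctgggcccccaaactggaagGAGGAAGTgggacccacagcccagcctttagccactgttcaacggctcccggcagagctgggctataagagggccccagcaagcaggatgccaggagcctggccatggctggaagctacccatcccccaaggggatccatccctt
Elane, chr10:79886062-79886361, plus strand: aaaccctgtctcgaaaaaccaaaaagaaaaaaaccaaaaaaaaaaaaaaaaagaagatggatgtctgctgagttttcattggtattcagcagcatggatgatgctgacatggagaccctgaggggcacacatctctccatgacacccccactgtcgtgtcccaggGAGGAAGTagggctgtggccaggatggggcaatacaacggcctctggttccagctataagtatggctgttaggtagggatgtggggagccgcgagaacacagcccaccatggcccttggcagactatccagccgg
Mpo, chr11:87793534-87793833, plus strand: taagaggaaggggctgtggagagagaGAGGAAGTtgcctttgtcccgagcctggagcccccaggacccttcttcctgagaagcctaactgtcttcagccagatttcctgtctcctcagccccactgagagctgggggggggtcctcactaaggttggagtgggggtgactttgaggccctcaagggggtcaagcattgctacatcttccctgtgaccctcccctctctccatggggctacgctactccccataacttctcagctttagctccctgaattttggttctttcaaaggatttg
S100a8, chr3:90668821-90669120, plus strand: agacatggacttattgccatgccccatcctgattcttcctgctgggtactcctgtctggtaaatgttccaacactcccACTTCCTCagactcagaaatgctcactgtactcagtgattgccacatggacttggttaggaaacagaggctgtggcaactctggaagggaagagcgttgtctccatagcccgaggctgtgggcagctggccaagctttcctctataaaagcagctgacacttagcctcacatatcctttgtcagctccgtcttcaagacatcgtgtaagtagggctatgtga
S100a9, chr3:90695672-90695971, minus strand: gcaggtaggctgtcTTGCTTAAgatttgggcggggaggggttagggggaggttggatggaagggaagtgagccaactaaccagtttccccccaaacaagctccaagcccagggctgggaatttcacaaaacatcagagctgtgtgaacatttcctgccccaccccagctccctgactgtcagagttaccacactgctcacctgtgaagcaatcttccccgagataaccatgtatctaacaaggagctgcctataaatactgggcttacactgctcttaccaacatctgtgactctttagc

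To ask how the members behave as cells pass from DN1 to DN3, the mean of both genotypes was compared between stages with the pool as a block. From DN1 to DN2, 27 of 30 tested members were lower and 0 higher at an adjusted p under 0.05 (limma, Benjamini-Hochberg over 27022 probe sets), against 31.2% of all probe sets lower and 28.5% higher. The median difference over the 34 members was -2.64 on the log2 scale, against -0.06 over all probe sets tested. From DN2 to DN3, 18 members were lower and 0 higher, against 4.07% lower and 6.93% higher over all probe sets, with a median of -1.19 for the members and 0.08 for all. From DN1 to DN3, 28 members were lower and 0 higher, against 25.0% and 30.1% of all probe sets, with a median of -4.34 for the members and 0.04 for all.

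A fall of over 4-fold at an adjusted p under 0.05 was found for 18 of 30 members between DN1 and DN2 (4.51% of all probe sets), for 12 between DN2 and DN3 (0.337%) and for 24 between DN1 and DN3 (4.57%). A rise of that size was found for 0 members at each step (2.34% of all probe sets between DN1 and DN2, 0.0259% between DN2 and DN3 and 2.84% between DN1 and DN3). Many falls ended below the background reference, where signals have no order. With each later pool held at no less than that reference, which gives a lower bound, 17 tested members fell over 4-fold between DN1 and DN2, 7 between DN2 and DN3 and 23 between DN1 and DN3, and the medians over the 34 members were -2.37, -0.69 and -3.42. Folds given below as "at least" were computed in this way. In 27 of the 34 members every DN1 pool lay above every DN2 pool, the exceptions being Mpo, Ctsg, Csf2ra, Tlr2, Tlr4, Tlr9 and Cebpa; 25 of these 27 passed the filter, and the same held for 9.46% of all probe sets. Every DN1 pool lay above every DN3 pool in 28 members, of which 25 passed the filter (8.8% of all probe sets). Signals above the background reference in all 8 pools were seen for 32 members at DN1, 23 at DN2 and 13 at DN3. Cd14, Cebpa, Prtn3 and Tlr9 did not pass the filter on low signals and have no place in the counts of calls. Siglech, Elane and Tlr7 had means below the limit of the filter at both DN2 and DN3, so they passed it only through DN1. Their part in the counts of falls from DN1 is thus not independent of the filter. In the fit without the filter they were lower at DN2 than at DN1 too (limma adjusted p = 3.66e-08, 2.30e-04 and 3.69e-05).

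Markers of other cells moved with the members. All 9 of 9 NK genes, 8 of 8 tested neutrophil granule genes and 5 of 6 tested mast cell and basophil genes were lower at DN2 than at DN1, with median differences of -7.20, -6.24 and -4.72 over the whole lists. Between DN2 and DN3, 3 of 9 NK genes were lower, with a median difference of -0.44, and the mean log2 signal of the NK list was 5.09 to 5.45 at DN2 and 4.04 to 4.70 at DN3. The members shared with NK cells were lower at that step by at least 4.67-fold (Tyrobp), 5.93-fold (Fcer1g) and 2.51-fold (Fcgr3). The part of such cells in the member signals cannot be told apart from a change within thymocytes. Without TLX1 pool 2 and control pool 3, the counts of members called lower were 27 for DN2 against DN1, 17 for DN3 against DN2 and 28 for DN3 against DN1. In the 4 control pools alone, 8 members passed for DN3 against DN2. The share of all probe sets called was not counted in these smaller fits, so their counts do not compare the genotypes. For that step, 0 members and 0 of 27022 probe sets passed the test of a stage-dependent TLX1 effect.

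**Figure D1:**
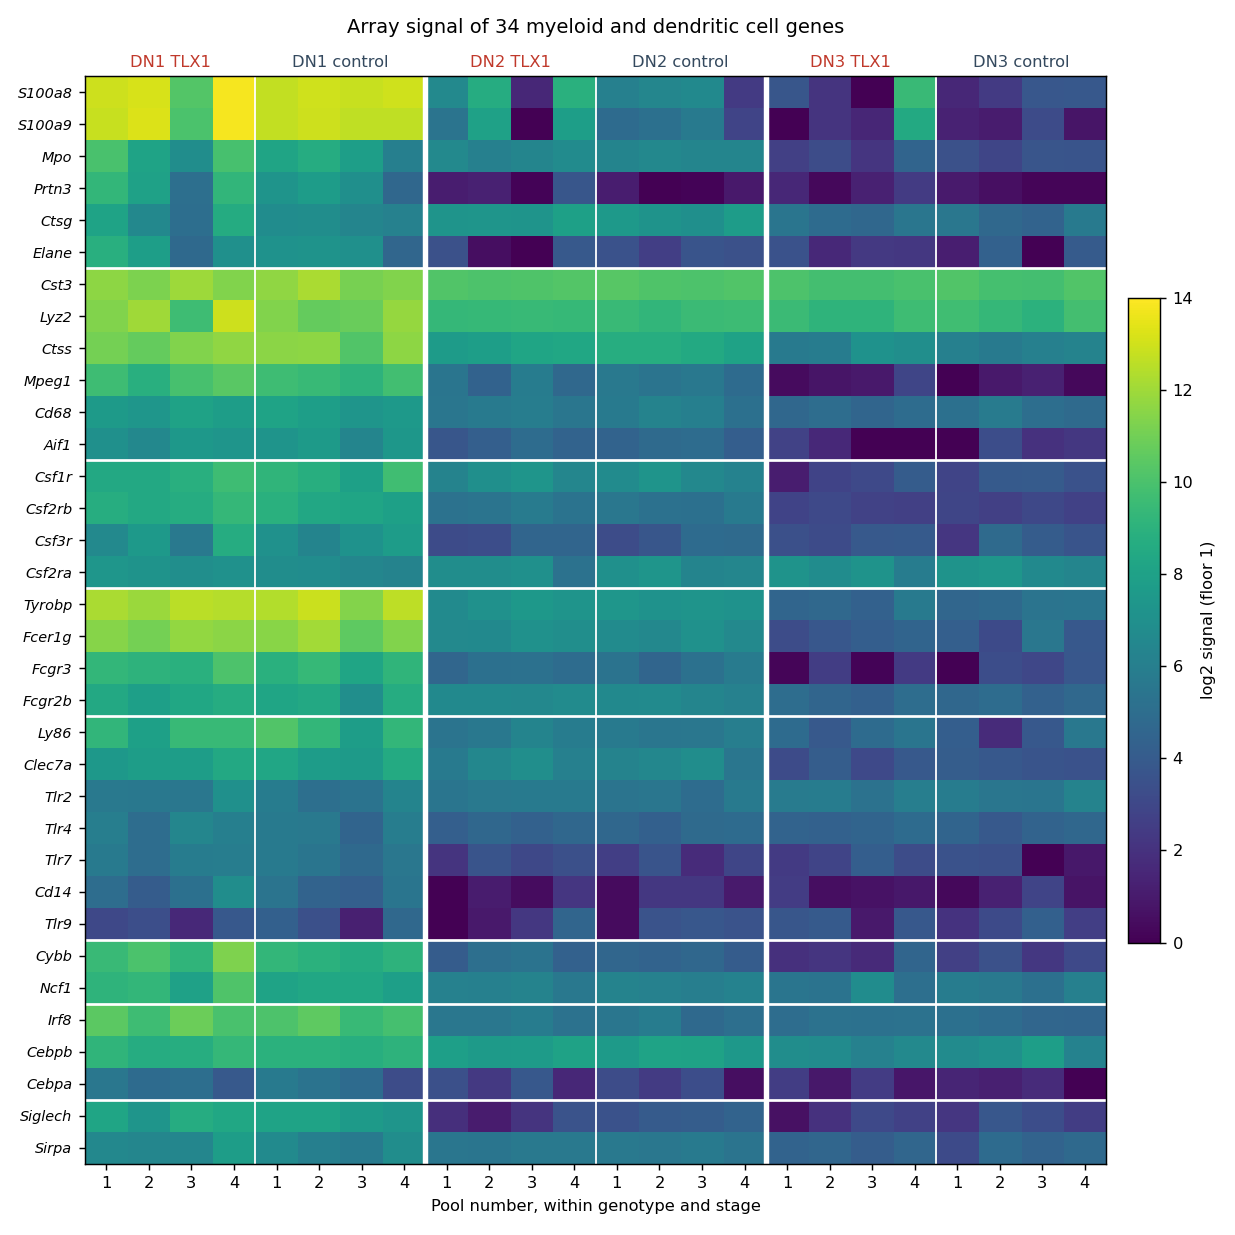
Heat map of log2 signal (floor 1) for the 34 members (rows, grouped by role with white lines) on the 24 arrays (columns: pools 1 to 4 of TLX1 and then control, at DN1, DN2 and DN3). Most rows are bright at DN1, dimmer at DN2 and dark at DN3, while Csf2ra and Tlr2 keep their shade and Ctsg darkens only at DN3.

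The granule and alarmin genes included S100a8 and S100a9, which fell most by their fitted values. S100a8, which with S100a9 forms the antimicrobial complex calprotectin of neutrophils and monocytes, had DN1 signals of 7752, 9248, 1204 and 14224 in TLX1 pools 1 to 4, against 6795, 8206, 7232 and 8058 in control pools 1 to 4. At DN2 its signals were 95.3, 412, 2.90 and 470.2 in TLX1 pools and 69.0, 84.9, 100.3 and 5.21 in control pools, and at DN3 13.5, 4.33, 1.01 and 731 in TLX1 pools and 2.89, 5.17, 14.05 and 14.4 in control pools. Every DN1 pool thus exceeded every later one, although TLX1 pool 3 was low at DN1 and TLX1 pool 4 stayed high at DN3. The difference between DN3 and DN1 was -9.34 ± 0.79 (SE) on the log2 scale (limma adjusted p = 1.73e-07). As 5 of 8 DN3 pools were at or below the background reference, the fall was at least 293-fold.

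S100a9, like its partner, was lowest in TLX1 pool 3 and highest in TLX1 pool 4 at DN1. Its DN1 signals were 7355, 9822, 1060.1 and 14189.5 in TLX1 pools and 6839, 7934, 6577 and 6547 in control pools. By DN2 they were 41.1, 259.6, 0.257 and 228 in TLX1 pools and 30.0, 36.0, 53.2 and 7.22 in control pools. At DN3 they were 0.704, 4.37, 2.84 and 366 in TLX1 pools and 2.57, 2.13, 9.25 and 1.74 in control pools. TLX1 pool 4 was the only DN3 sample above the background reference, and the difference between DN3 and DN1 was -10.30 ± 0.78 (SE, limma adjusted p = 5.92e-08). The fall was at least 304-fold, with 7 of 8 DN3 pools at or below the background reference, and no order between the 2 genes can be read.

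The 4 azurophil granule enzymes, made in neutrophil precursors, parted at DN2. Mpo, the myeloperoxidase, gave 998, 283, 115 and 960.1 in TLX1 pools and 291, 409, 232 and 64.8 in control pools at DN1. Its DN2 signals lay within a narrow band of 69.3 to 109 in TLX1 pools and 81.0 to 92.0 in control pools, and at DN3 they were 4.47 to 22.9 in TLX1 pools and 7.59 to 12.7 in control pools. Ctsg, encoding cathepsin G, gave 277, 91.4, 33.1 and 395 in TLX1 pools and 112, 117, 83.5 and 70.3 in control pools at DN1, but 153, 160.1, 154 and 252 in TLX1 pools and 182, 147, 125 and 217 in control pools at DN2, so that 6 of 8 pools were higher at DN2 (difference 0.59 ± 0.29, SE, adjusted p = 0.0951).

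Ctsg then fell at DN3 in all 8 pools, by 2.28 on the log2 scale (limma adjusted p = 3.98e-04), as did Mpo, by at least 5.83-fold (adjusted p = 1.79e-04). Unlike Ctsg, Mpo was already 3.42-fold lower at DN2 than at DN1 (limma adjusted p = 7.38e-04, 7 of 8 pools lower). Elane, the neutrophil elastase, and Prtn3, proteinase 3, came to signals near or below the background reference at DN2. Elane spanned 24.4 to 451 over the 8 pools at DN1 and 0.327 to 14.8 at DN2, and Prtn3 spanned 25.8 to 624 at DN1 and 0.777 to 13.4 at DN2, where none of its pools passed the background reference. In the fit without the filter, Prtn3 differed between DN2 and DN1 by -6.23 on the log2 scale (limma adjusted p = 1.65e-07), a fall of at least 11.3-fold.

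**Figure D2:**
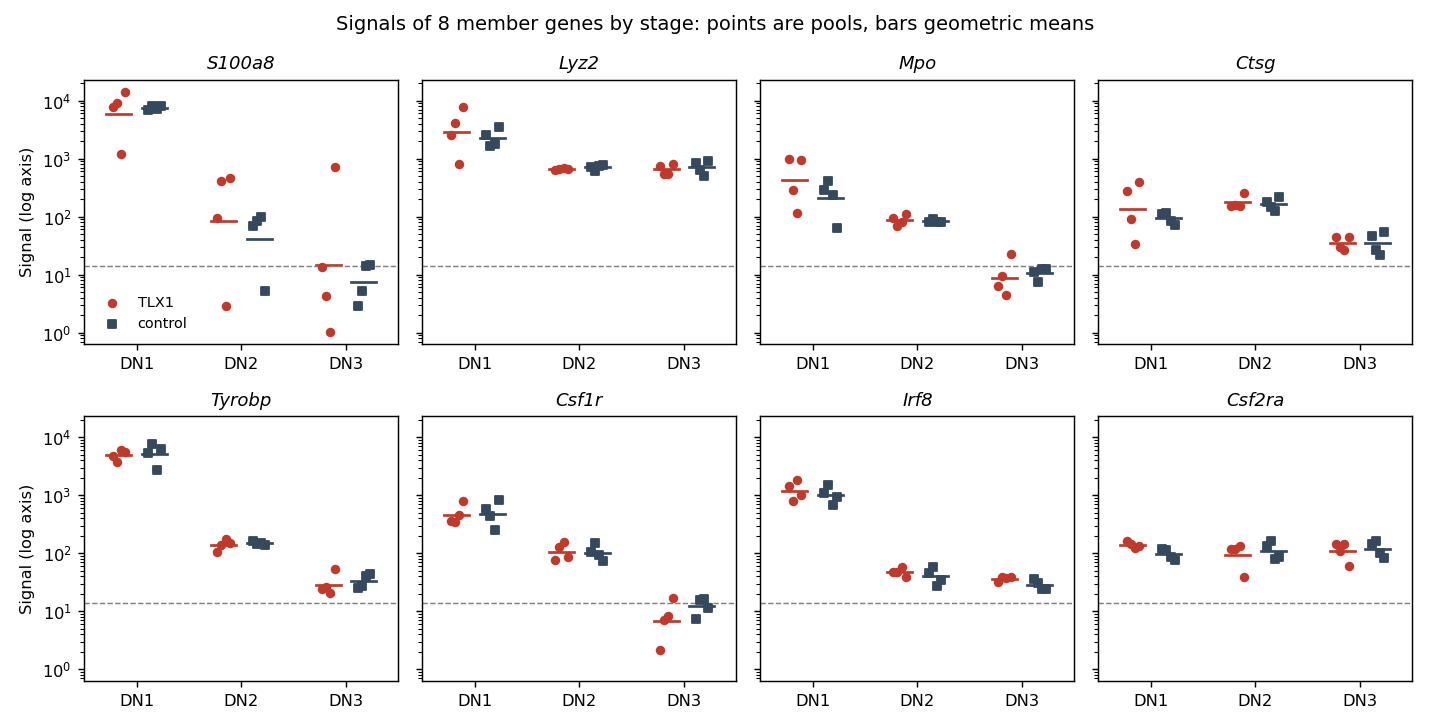
Signal (log axis) of 8 members at DN1, DN2 and DN3, with TLX1 pools as circles left of control pools as squares; bars are geometric means and the dashed line is the background reference of 13.81. S100a8 and Irf8 drop mainly before DN2, Csf1r and Mpo drop in 2 steps, Lyz2 stays level after DN2, Ctsg falls only after DN2, and the stages of Csf2ra overlap.

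Among the lysosome and phagocyte effectors, all 6 were lower at DN2 than at DN1 and 4 fell further at DN3. Lyz2, the lysozyme of phagocytes, gave DN1 signals of 2598, 4078, 818 and 7811 in TLX1 pools and 2576, 1652, 1796 and 3563 in control pools. At DN2 it lay at 646 to 689 in TLX1 pools and 605 to 764 in control pools, and at DN3 at 546 to 803 in TLX1 pools and 506 to 895 in control pools. It was therefore well above the background reference at every stage, with a difference between DN3 and DN2 of -0.01 ± 0.27 (SE, limma adjusted p = 0.977), and its probe set may also bind transcripts of its paralog Lyz1.

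Cst3, encoding the protease inhibitor cystatin C, fell between DN1 and DN2, and was lower again at DN3 in 8 of 8 pools by an amount that did not pass the test (-0.22 ± 0.12, SE, limma adjusted p = 0.248). Its DN1 signals were 3172, 2377, 3946 and 2637 in TLX1 pools and 3268, 4706, 2269 and 2576 in control pools. They were 1165, 1108, 1141 and 1212 in TLX1 pools and 1340.5, 1143, 1108 and 1195 in control pools at DN2, and 1104, 902, 900.2 and 1013 in TLX1 pools and 1190.2, 952, 889 and 1160.2 in control pools at DN3. Every pool was lower at both later stages than any pool at DN1, and the fall from DN1 to DN3 was 3.005-fold (limma adjusted p = 6.91e-08).

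Ctss, the lysosomal protease cathepsin S, fell at both steps. It gave 2165, 1645, 2622 and 3216 in TLX1 pools and 2995, 3135, 1194 and 3185 in control pools at DN1, where control pool 3 was the lowest by far. Its DN2 signals were 207, 231, 297 and 324 in TLX1 pools and 420.3, 429, 365 and 265 in control pools, and its DN3 signals 55.4, 59.0, 141 and 121 in TLX1 pools and 67.8, 52.1, 67.5 and 77.5 in control pools. The stages did not overlap, and the log2 differences were -2.96 ± 0.19 for DN2 against DN1 and -2.03 ± 0.19 for DN3 against DN2 (SE, adjusted p = 1.24e-08 and 2.53e-05 by limma).

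Mpeg1, a pore-forming protein of the macrophage phagosome, fell at both steps. Its signals were 791, 464, 973 and 1365 in TLX1 pools and 792, 679.9, 526 and 864 in control pools at DN1. They were 42.8, 21.5, 58.2 and 26.6 in TLX1 pools and 49.8, 41.8, 48.4 and 30.1 in control pools at DN2, and 1.33 to 7.56 in TLX1 pools and 0.826 to 2.43 in control pools at DN3. The difference between DN2 and DN1 was -4.34 ± 0.30 (SE, limma adjusted p = 2.54e-08). No DN3 pool passed the background reference, so the fall between DN2 and DN3 (limma adjusted p = 1.22e-06) was at least 2.75-fold, and that between DN1 and DN3 at least 55.5-fold. Cd68, an endosomal glycoprotein of macrophages, and Aif1, an actin-binding protein of macrophages, also fell at both steps, with pools spanning 155 to 278 at DN1, 35.8 to 76.1 at DN2 and 23.98 to 56.2 at DN3 for Cd68, and 81.4 to 200.5 at DN1, 13.3 to 31.5 at DN2 and 0.521 to 9.95 at DN3 for Aif1.

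The growth factor receptors split into 3 that fell and 1 that did not. Csf1r, the receptor for macrophage colony-stimulating factor, spanned 248 to 833 over the 8 pools at DN1, 72.6 to 157 at DN2 and 2.17 to 16.9 at DN3. It differed by -2.17 ± 0.31 (SE) between DN2 and DN1 (limma adjusted p = 3.27e-05) and fell at least 7.09-fold between DN2 and DN3 (limma adjusted p = 1.72e-05), with 5 of 8 DN3 pools at or below the background reference. Csf2rb, the beta chain shared by the receptors for GM-CSF, IL-3 and IL-5, spanned 252 to 653 at DN1, 35.6 to 57.1 at DN2 and 6.20 to 8.57 at DN3. Csf3r, the receptor for granulocyte colony-stimulating factor, spanned 50.4 to 409 at DN1, 9.35 to 30.1 at DN2 and 4.58 to 28.5 at DN3, and did not pass the test between DN2 and DN3.

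Csf2ra, the alpha chain of the GM-CSF receptor, had the smallest mean difference from DN1 to DN3 when both genotypes were averaged, and -0.37 in TLX1 pools and 0.30 in control pools taken alone. Its signals were 165, 146, 122 and 135 in TLX1 pools and 118, 114, 85.4 and 76.7 in control pools at DN1. At DN2 they were 116, 118, 132 and 39.3 in TLX1 pools and 132, 160.0, 81.0 and 85.9 in control pools, and at DN3 146, 111, 147 and 59.9 in TLX1 pools and 147, 162, 100.4 and 83.7 in control pools. All 3 stages overlapped, and the difference between DN3 and DN1 was -0.04 ± 0.15 (SE, limma adjusted p = 0.857), with a sign that turned under 4 alternative settings.

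All 4 ITAM adaptor and Fc receptor genes fell at both steps. Tyrobp, which encodes the adaptor DAP12, gave 4795, 3791, 5928 and 5568 in TLX1 pools and 5403, 7589, 2683 and 6179 in control pools at DN1. It gave 104, 138, 175 and 152 in TLX1 pools and 162, 143, 152 and 140.3 in control pools at DN2, and 24.01, 26.2, 20.4 and 52.8 in TLX1 pools and 25.0, 27.4, 41.2 and 43.6 in control pools at DN3. The stages were fully separate in all pools, with a difference between DN3 and DN1 of -7.35 ± 0.21 (SE, limma adjusted p = 7.29e-12).

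Fcer1g, the gamma chain shared by activating Fc receptors, had DN1 signals of 2846, 2132, 3423 and 3015 in TLX1 pools and 2965, 4199.5, 1501 and 2571 in control pools. They were 95.0, 101, 138 and 122 in TLX1 pools and 109, 91.2, 137 and 98.2 in control pools at DN2, and 9.49, 13.7, 18.1 and 23.0 in TLX1 pools and 18.8, 8.76, 46.9 and 14.52 in control pools at DN3. Fcgr3, an activating IgG receptor, spanned 301 to 1078 at DN1, 24.002 to 57.1 at DN2 and 0.826 to 13.9 at DN3, and Fcgr2b, the inhibitory IgG receptor, spanned 122 to 408 at DN1, 72.4 to 107 at DN2 and 19.8 to 31.9 at DN3. Tyrobp, Fcer1g and Fcgr3 are also expressed by NK cells, whose 9 marker genes were all lower at DN2 than at DN1 with a median difference of -7.20, so the parts of these cell types in the signals cannot be told apart here. Fcgr2b and Fcgr3 are close paralogs, and probes may bind both.

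Of the pattern recognition receptors, 4 of 5 tested members were lower at DN2 than at DN1. Ly86, which encodes the MD-1 partner of the receptor RP105, spanned 218 to 1175 at DN1, 41.9 to 79.4 at DN2 and 3.25 to 48.7 at DN3, and Clec7a, the beta-glucan receptor dectin-1, spanned 175 to 374 at DN1, 45.1 to 121 at DN2 and 8.54 to 17.3 at DN3. Tlr4, the receptor for lipopolysaccharide, spanned 23.0 to 85.0 at DN1 and fell 2.13-fold between DN1 and DN2 (limma adjusted p = 1.90e-04, to 18.8 to 29.9 at DN2), and Tlr7, a receptor for single-stranded RNA, spanned 27.4 to 61.1 at DN1 and fell at least 3.32-fold to signals at or below the background reference. Cd14, the co-receptor for lipopolysaccharide, spanned 16.6 to 116 at DN1 and 0.983 to 4.87 at DN2.

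Tlr2, the receptor for bacterial lipoproteins, showed no fall that passed the test, with -0.22 in TLX1 pools and 0.12 in control pools from DN1 to DN3. Its DN1 signals were 51.1, 49.1, 47.2 and 130.04 in TLX1 pools and 58.1, 34.8, 39.9 and 79.0 in control pools. Those at DN2 were 42.9, 51.0, 51.6 and 51.9 in TLX1 pools and 42.3, 45.3, 31.2 and 54.0 in control pools, and those at DN3 57.3, 58.1, 38.5 and 64.4 in TLX1 pools and 59.5, 45.2, 43.2 and 75.7 in control pools. The stages overlapped throughout, and the difference between DN3 and DN1 was -0.05 ± 0.15 (SE, limma adjusted p = 0.788).

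Tlr9, the receptor for unmethylated CpG DNA, lay around the background reference at every stage. It gave 8.26, 10.4, 3.04 and 14.3 in TLX1 pools and 19.8, 10.8, 2.31 and 27.04 in control pools at DN1. It gave 0.641, 1.97, 4.81 and 23.5 in TLX1 pools and 1.30, 12.2, 13.7 and 11.8 in control pools at DN2, and 13.4, 15.51, 1.93 and 14.3 in TLX1 pools and 4.11, 8.78, 19.4 and 5.95 in control pools at DN3. No order of stages could be read from these values.

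Both subunits of the phagocyte NADPH oxidase, which makes superoxide, were lower at DN2 than at DN1. Cybb, the membrane-bound catalytic subunit, spanned 398 to 2549 at DN1, 16.8 to 40.2 at DN2 and 3.24 to 23.4 at DN3, and Ncf1, the cytosolic organiser p47phox, spanned 242 to 1140.4 at DN1, 49.1 to 76.2 at DN2 and 35.2 to 111 at DN3. Cybb fell further between DN2 and DN3 (adjusted p = 0.00281 by limma), whereas the difference for Ncf1 of -0.41 ± 0.30 (SE) did not pass (adjusted p = 0.385).

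Of the transcription factors, Irf8, which is needed for monocyte and dendritic cell development, fell mainly before DN2. Its DN1 signals were 1429, 791, 1832 and 1026 in TLX1 pools and 1081, 1489.7, 693 and 945 in control pools. Its DN2 signals were 47.0, 47.0, 58.8 and 38.4 in TLX1 pools and 45.6, 57.9, 27.2 and 35.0 in control pools, a 25.5-fold fall (limma adjusted p = 2.15e-11), and at DN3 they spanned 24.02 to 39.3. Cebpb, induced in activated macrophages, fell more gently through 399.8 to 634 at DN1, 180.0 to 281 at DN2 and 71.7 to 233 at DN3. Cebpa, needed for granulocyte development, was dim, with 9.66 to 53.0 at DN1 and no DN3 pool above the background reference.

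The other surface molecules were Siglech, a lectin of plasmacytoid dendritic cells, and Sirpa, the receptor for CD47 on phagocytes and some dendritic cells. Siglech spanned 159.9 to 402 at DN1 and 2.12 to 21.7 at DN2, close to the background reference, a fall of at least 16.3-fold (limma adjusted p = 8.65e-09). Sirpa spanned 55.0 to 225 at DN1, 42.0 to 52.7 at DN2 and 8.68 to 29.4 at DN3.

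For 13 of the 34, every DN2 pool lay above every DN3 pool, against 0.992% of all probe sets: Tyrobp, Fcer1g, Fcgr3, Fcgr2b, Ctss, Mpeg1, Aif1, Csf1r, Csf2rb, Mpo, Ctsg, Clec7a and Sirpa. S100a8, Elane, Irf8, Siglech, Csf3r, Tlr7 and Ncf1 had fitted falls of more than 4-fold by DN2 (at least 3.32-fold for Tlr7) and did not pass the test between DN2 and DN3, although S100a8 (adjusted p = 0.0532) and Irf8 (adjusted p = 0.0503) came close. At DN2 Tlr7 was already at or below the background reference in 8 of 8 pools, Elane in 7, Siglech in 5 and Csf3r in 4, so a further fall of these could not be seen. S100a9 passed with an adjusted p of 0.0434, which was 0.0883 without the filter on low signals. In all, 11 genes had several probe sets, and of their 21 other probe sets the 18 that passed the background reference were all lower at DN3 than at DN1.

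**Figure D3:**
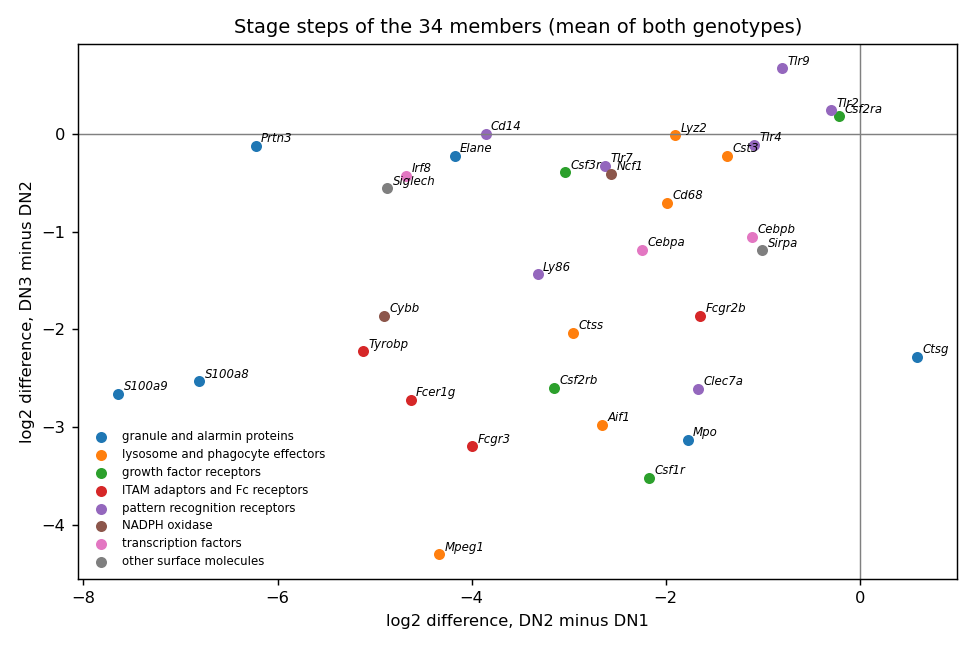
Scatter of the log2 difference between DN2 and DN1 (x axis) against that between DN3 and DN2 (y axis) for each of the 34 members, as the mean of both genotypes, coloured by role. S100a9 and S100a8 lie at the far left, Mpeg1 and Csf1r at the bottom, and Ctsg (0.59 on the x axis) alone at the right; points of members that end below the background reference show fitted values and not measured sizes.

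Single pools stood apart at DN1. TLX1 pool 4 had the highest DN1 signal for 17 of the 34 members, against 15.6% of all probe sets, and control pool 3 had the lowest for 16, against 27.8% of all probe sets. The 17 genes highest in TLX1 pool 4 included S100a8, S100a9, Lyz2, Cybb, Ncf1, Csf3r and Cd14. The 16 genes lowest in control pool 3 included Tyrobp, Fcer1g, Ctss, Irf8, Cst3, Ly86 and Csf1r. TLX1 pool 2 had the lowest signal for 3 of the 34 members, against 9.19% of all probe sets. Relative to the mean of the 8 pools, the medians by role in TLX1 pool 2 went both ways. They were 0.58 for the oxidase genes, 0.55 for the granule and alarmin genes, 0.09 for the growth factor receptors and -0.50 to -0.29 for the other roles. In control pool 3 they were -0.89 to -0.14. TLX1 pool 2 and control pool 3 are the pools with many cells outside the gates and with the highest T lineage signals, and the part of either in the member signals was not tested.

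In TLX1 pool 3 the granule genes stood apart from most other members. The 6 granule and alarmin genes had a median of -2.08 relative to the 8-pool mean there (S100a9 -2.58, S100a8 -2.47, Prtn3 -2.16, Elane -2.003, Ctsg -1.76 and Mpo -1.35 on the log2 scale). Lyz2 and Csf3r were low with them (-1.65 and -1.44), as were the oxidase genes Ncf1 (-0.67) and Cybb (-0.35), whereas Irf8 (0.73), Tlr4 (0.74) and Siglech (0.69) were at their highest of all pools. Control pool 4 was low in Prtn3 (-2.60), Elane (-2.20) and Mpo (-2.18) but not in S100a8 (0.27) or Ctss (0.41). At DN3 TLX1 pool 4 again had the highest signal for the most members (9 of 34, against 15.8% of all probe sets), while TLX1 pool 3 had the lowest for 11 (8.87%).

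Granule genes outside the list moved with the members across these pools. The mean log2 signal of 9 neutrophil granule genes at DN1 was 9.39, 10.06, 5.21 and 11.16 in TLX1 pools 1 to 4, against 8.21, 8.22, 8.83 and 7.72 in control pools 1 to 4, lowest in TLX1 pool 3 and highest in TLX1 pool 4. Lcn2, a siderophore-binding protein of neutrophil granules, gave 2216, 3659.9, 108 and 7729 in TLX1 pools and 926, 1059.8, 1417 and 626 in control pools, and Ltf, the iron-binding protein lactoferrin, gave 1918, 3482, 123 and 6068 in TLX1 pools and 606, 859, 1153 and 400.1 in control pools. TLX1 pool 4 also stayed highest for this list at DN3 (4.59, against 1.94 to 2.43 in the other 7 pools), as for S100a8 and S100a9.

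**Figure D4:**
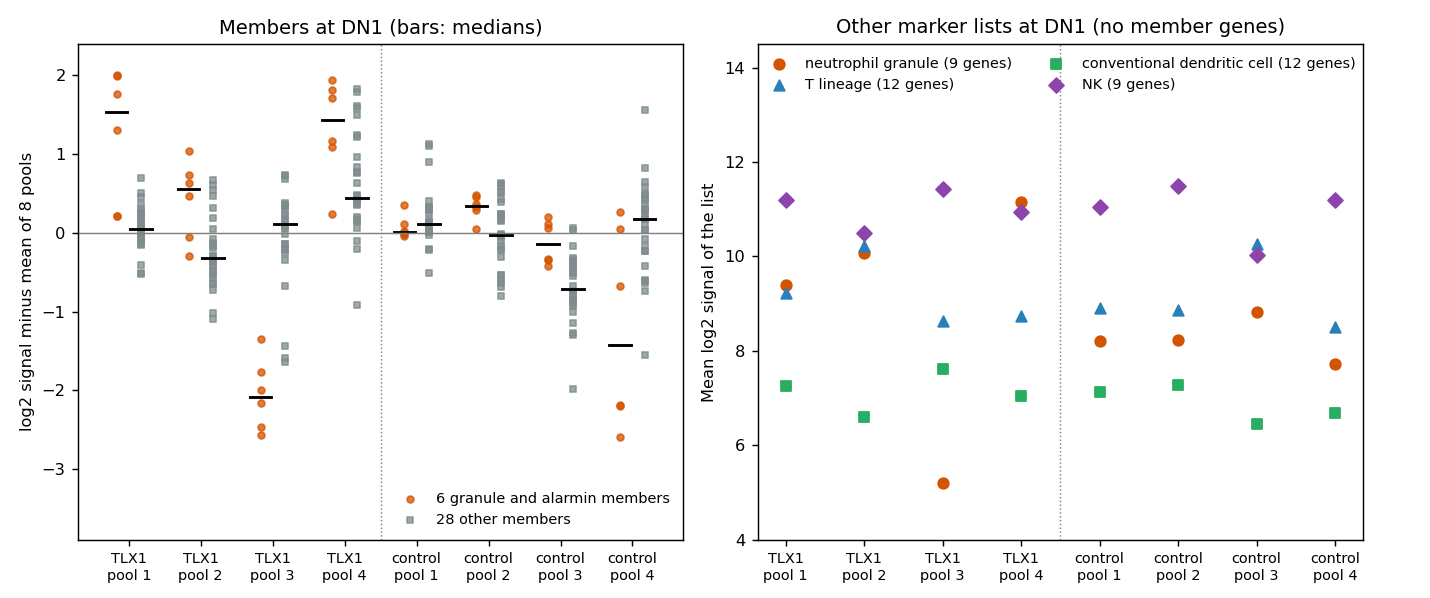
Left, log2 signal at DN1 minus the mean of the 8 pools for the 6 granule and alarmin members (circles) and the 28 others (squares), by pool, with bars at the medians; right, mean log2 signal of 4 marker lists that hold no member. The granule members are lowest in TLX1 pool 3 and spread most between pools, the neutrophil granule list is lowest (5.21) in the same pool, and the T lineage list is highest in TLX1 pool 2 and control pool 3.

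To ask whether the TLX1 transgene changed these genes, signals of both genotypes were set against each other stage by stage. None of the 30 tested members passed an adjusted p of 0.05 at DN1, DN2 or DN3 (limma, percent of all probe sets called 0.0037%, 0.0037% and 0.0185%), and 3, 1 and 0 members had an unadjusted p under 0.05, against 1.72%, 3.53% and 6.02% of all probe sets. With the study's own limits (p no higher than 0.05 before adjustment, together with a change of 1.4-fold or more), 3 members were higher and 0 lower at DN1 (0.914% and 0.622% of all probe sets), 0 higher and 1 lower at DN2 (0.925% and 1.58%), and 0 at DN3 in either direction (3.33% and 0.995%). The median log2 fold change of TLX1 over control over the 34 members came to 0.25 (DN1), -0.01 (DN2) and -0.02 (DN3), against 0.01, -0.02 and 0.01 over all probe sets. At DN1 24 members were above 0 (21 of the 30 tested, 51.5% of all probe sets), at DN2 16 (14 of the tested, 47.0%) and at DN3 16 (13 of the tested, 51.6%). By role, the median at DN1 was 0.98 for the 2 oxidase genes, 0.58 for the 6 granule and alarmin genes and -0.02 for the 6 lysosome and phagocyte genes. Without TLX1 pool 4 the DN1 median was 0.01, and the spread of the median member between pools (SD) was 0.43.

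The 3 members with the smallest p at DN1 were Csf2ra, Ncf1 and Cybb. For Csf2ra, the DN1 pools given above did not overlap, with a mean log2 signal of 7.14 ± 0.18 in TLX1 and 6.60 ± 0.31 in control pools (SD, n = 4 each) and a log2 fold change of 0.54 ± 0.20 (SE, limma adjusted p = 1.0000). Groups with TLX1 above control in this way made up 0.725% of all probe sets, and Csf2ra was the only member among them. No tested member was lower without overlap at DN1 (0.529% of all probe sets), nor separated at DN2 (1.39% higher and 1.35% lower) or DN3 (2.64% higher and 1.25% lower). Another probe set of the gene had a log2 fold change of -0.78, and the median over its probe sets was -0.12.

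Ncf1 had DN1 signals of 552, 618, 253 and 1140.4 in TLX1 pools, against 284, 326, 322 and 242 in control pools. TLX1 pools 1, 2 and 4 exceeded every control pool while TLX1 pool 3 fell within them, with a log2 fold change of 0.94 ± 0.41 (SE, limma adjusted p = 1.0000). Cybb had DN1 signals of 716, 1054, 566 and 2549 in TLX1 pools, against 625, 497, 398 and 537 in control pools. TLX1 pools 1, 2 and 4 again exceeded every control pool and TLX1 pool 3 lay within their range, with a log2 fold change of 1.01 ± 0.44 (SE, limma adjusted p = 1.0000).

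For both oxidase genes all 3 of 3 probe sets were higher in TLX1 pools at DN1, and TLX1 pool 4 held the highest value. Leaving that pool out brought the log2 fold change to 0.60 for Ncf1 and 0.57 for Cybb. In the fit with the RNA integrity index as a covariate, 7 members in place of 3 met the study's thresholds at DN1 and 0 passed after adjustment. With no covariate, 0 members met these thresholds without TLX1 pool 2, without control pool 3 or without control pool 4, and 5 did without TLX1 pool 3. The share of all probe sets at these thresholds was not counted in these fits, so whether the members exceed it cannot be told. Cybb was among genes that the study had listed from these arrays, so its direction is no independent evidence.

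At DN2 the smallest p belonged to Siglech, with signals of 3.76, 2.12, 4.23 and 12.1 in TLX1 pools and 11.3, 16.0, 17.3 and 21.7 in control pools. In 3 TLX1 pools the signal lay below every control pool, but all values were near the background reference, and the log2 fold change of -1.85 ± 0.49 (SE) had a limma adjusted p of 0.9996. Ctss differed by -0.48 ± 0.22 (limma adjusted p = 0.9996), with TLX1 pools 3 and 4 inside the range of the control pools. Elane, with 11.1, 1.43, 0.327 and 14.8 in TLX1 pools and 11.4, 5.95, 12.6 and 10.96 in control pools, differed by -1.33 ± 0.88 (limma adjusted p = 0.9996) and lay near background throughout.

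At DN3 Irf8 had signals of 31.8, 39.3, 37.7 and 38.3 in TLX1 pools and 35.4, 30.6, 24.5 and 24.02 in control pools, with 3 TLX1 pools above every control pool. Its log2 fold change was 0.37 ± 0.17 (SE, limma adjusted p = 0.837). Cd68 had 25.8, 32.1, 23.98 and 31.1 in TLX1 pools and 36.1, 56.2, 33.7 and 28.2 in control pools, a log2 fold change of -0.41 ± 0.22 (limma adjusted p = 0.903). Siglech had 1.54, 3.93, 8.61 and 6.62 in TLX1 pools and 4.64, 13.8, 9.95 and 5.73 in control pools, a log2 fold change of -0.85 ± 0.56 (limma adjusted p = 0.937). The last 2 changed sign when the RNA integrity index entered the fit.

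**Figure D5:**
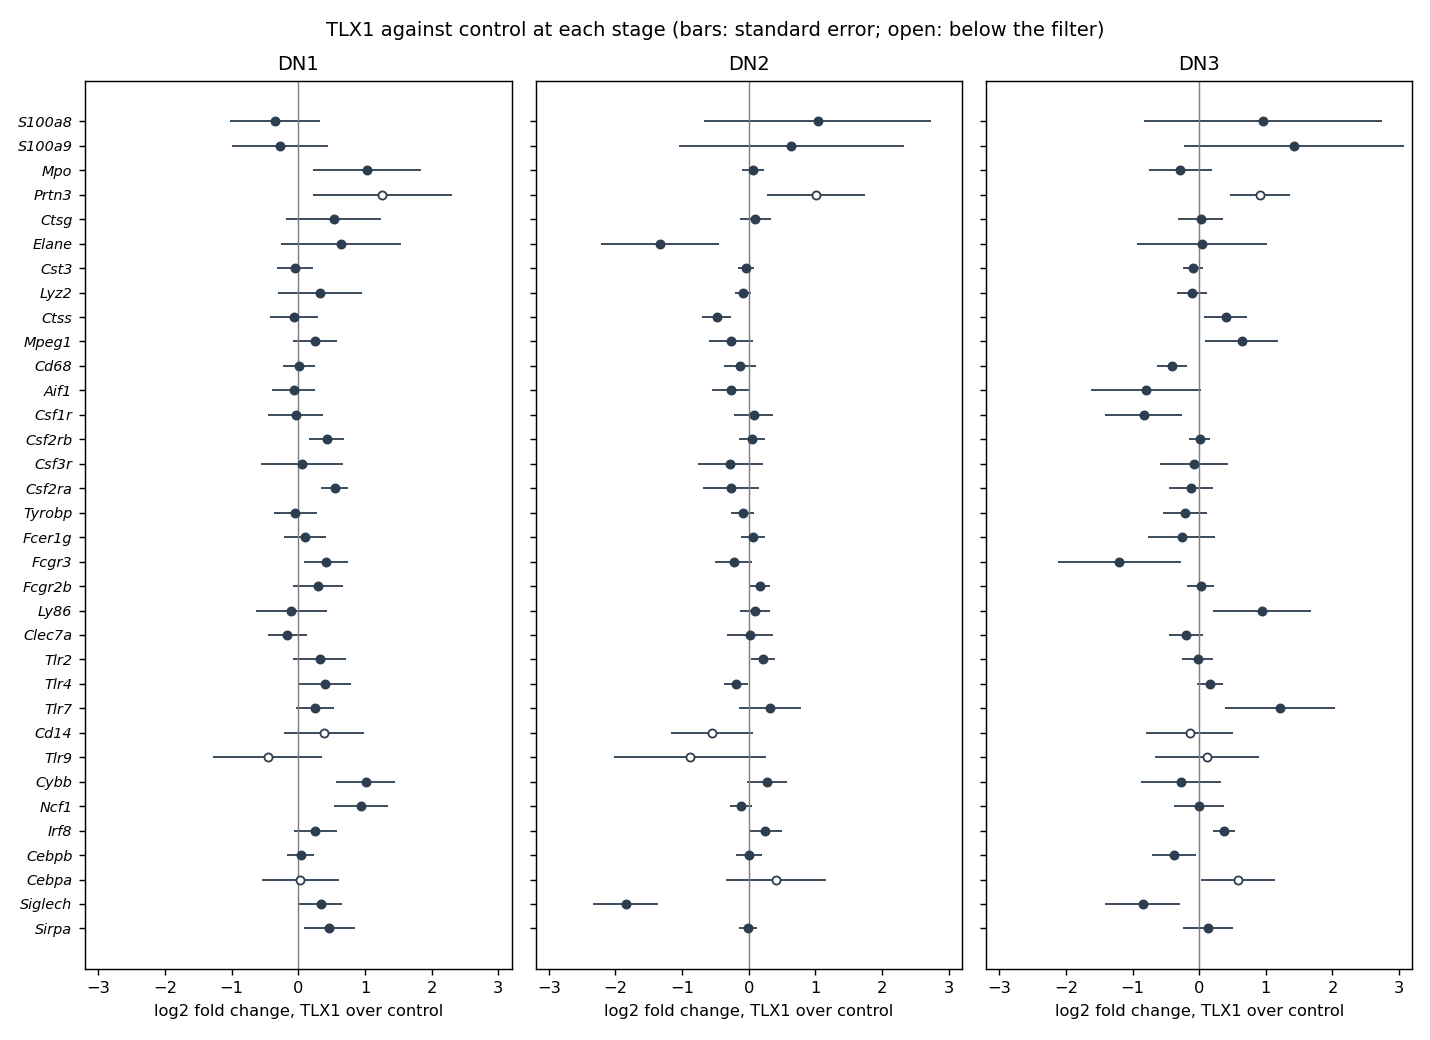
Log2 fold change of TLX1 over control for the 34 members at DN1, DN2 and DN3 (points, with bars of 1 standard error; open points are the 4 members below the filter). Members scatter on both sides of 0 at each stage, with 24 of 34 above 0 at DN1 and 16 of 34 at DN2 and at DN3.

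Whether the TLX1 effect depended on stage was tested as an interaction. None of the 30 members passed for any pair of stages, and 0 of 27022 probe sets did (0.0%), while 2 members had an unadjusted p under 0.05 for DN2 against DN1 (3.6% of all probe sets), 1 for DN3 against DN2 (2.89%) and 1 for DN3 against DN1 (3.23%). The largest of these was that of Siglech, whose TLX1 effect at DN2 minus that at DN1 was -2.18 ± 0.60 on the log2 scale (SE, limma adjusted p = 0.9999). As 5 of 8 DN2 pools of Siglech were at or below the background reference, the size of this difference cannot be read. Csf2ra differed by -0.80 ± 0.31 for DN2 against DN1 (limma adjusted p = 0.9999) and by -0.67 ± 0.31 for DN3 against DN1 (adjusted p = 0.9998), and Ctss by 0.88 ± 0.38 for DN3 against DN2 (adjusted p = 0.9999).

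Partner genes of the members, from lists that hold none of them, moved along the stages as follows. Of 11 partners of the Toll-like receptors, 9 were lower and 1 higher at DN2 than at DN1, those with the smallest p including Tlr1, the partner of Tlr2 (-3.35 ± 0.26, SE, limma adjusted p = 7.21e-08). Of 4 other oxidase subunits, 3 were lower, namely Cyba (-1.80 ± 0.13), which anchors Cybb in the membrane, Ncf4 (-1.98 ± 0.15) and the small GTPase Rac2 (-0.60 ± 0.08). Of 7 tested genes of ITAM signalling, 4 were lower and 1 higher. Btk, a kinase of B cells and myeloid cells, was 1.58 ± 0.11 for DN2 against DN1 and -1.95 ± 0.11 for DN3 against DN2. Of 8 tested partners of the growth factor receptors, 4 were lower and 3 higher. Those with the smallest p included Csf2rb2, the IL-3 receptor paralog of Csf2rb, which fell at least 11.04-fold, and the signal transducer Stat5a (1.68 ± 0.11). Csf2 of the same list fell by more, at least 32.03-fold. No gene of these lists passed the test of TLX1 against control at any stage.

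Lists of cell type markers moved as follows. All 8 tested neutrophil granule genes were lower at DN2 than at DN1 (median over the list -6.24), and their mean log2 signal at DN2 was 0.79 to 3.99 in TLX1 pools and 1.85 to 3.23 in control pools, so near background that a later fall could not be seen. Of 10 tested conventional dendritic cell genes, 9 were lower and 1 higher at DN2, with Itgax, the integrin chain CD11c, at -5.29 ± 0.23 (SE, limma adjusted p = 5.05e-10). The plasmacytoid dendritic cell list was mixed, with 6 of 10 tested genes lower and 3 higher at DN2 than at DN1 (median over the list -0.68). Between DN2 and DN3, 0 genes of that list were lower and 2 higher. Of 8 tested monocyte genes, 6 were lower and 0 higher at DN2 than at DN1 (median -1.77). Of 10 tested macrophage genes, 3 were lower and 3 higher at DN2, but 8 were lower and 0 higher at DN3 than at DN2. The complement genes C1qa, C1qb and C1qc had the smallest p of the list at that second step, and C1qa, made by tissue macrophages, had the smallest p of all 27022 probe sets between DN2 and DN3 (limma adjusted p = 2.48e-10, a fall of at least 6.74-fold).

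C1qa gave 119, 142, 218 and 67.7 in TLX1 pools and 195, 106, 139 and 105 in control pools at DN1. At DN2 it gave 82.3, 118, 213 and 61.9 in TLX1 pools and 122, 117, 53.9 and 57.1 in control pools with overlap of the stages, and at DN3 no pool exceeded the background reference. Of the members, the macrophage genes Csf1r, Mpeg1 and Aif1 fell at the same step by at least 7.09-fold, 2.75-fold and 1.602-fold. Cd68, another macrophage gene, fell 1.63-fold, and Lyz2 stayed level (1.01-fold lower). The granule genes Mpo and Ctsg fell there too, by at least 5.83-fold and by 4.85-fold, so the step was not particular to macrophage genes. Among myeloid transcription factors outside the list, Spi1, which encodes PU.1, was lower at DN3 than at DN2 (-1.35 ± 0.16 on the log2 scale, SE, limma adjusted p = 1.72e-04), and it was the only 1 of 9 to pass at that step.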

How the data were processed

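Signal intensities of 24 Affymetrix arrays were used as deposited. The authors made them with MAS5 in the Affymetrix Expression Console and scaled each array to a 2% trimmed mean of 150, so differences are relative to the bulk of transcripts on an array. Of 45101 probe sets, 64 controls were left out, values under 1 were set to 1 (4.37% to 11.3% of each array) and log2 was taken. Tests ran on the top 60% by mean log2 signal across the arrays (27022 probe sets, mean signal of at least 9.02) with limma 3.58.1 in R 4.3.3, with Benjamini-Hochberg adjustment. TLX1 and control pools were compared within each stage, and stages and the stage dependence of the TLX1 effect in a fit with the pool as a block. Other values were computed in Python 3.11.15 with pandas 2.3.3, numpy 2.4.6 and scipy 1.17.1. Genes were named from the platform annotation, in which 34945 probe sets have 1 gene, 932 several and 9160 none.

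All 34 members were named. Values in every pool were given for the 8 with the highest signal at DN1, for the 3 with the smallest p of TLX1 against control at each stage, and for the 3 with the largest fall and the 3 at the other end of that order (Csf2ra, Tlr2 and Tlr9, none of which rose) from DN1 to DN3. Mpo, Ctsg and Csf2 were added after their values were seen. The remaining genes of other lists were named by the smallest p, at most 3 per list and comparison. The members and lists were chosen with earlier results of these data known. Alternatives covered normalization, the filter, the offset, the probe set rule, array weights, covariates, single pools left out and the methods' unpaired t-test. Same-numbered pools of the genotypes did not pair as a set (correlation of deviations -0.345 to 0.482). The pools numbered 4 did correlate at every stage (0.482 at DN1, 0.402 at DN2 and 0.365 at DN3), and what they share was not tested. The number of pools, 4 per genotype, limits the precision. No table of proteins was used here.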

Additional observations from a re-analysis of the deposited data

Results flagged for a closer look

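In 11 of 175 groups of 4 pools, 1 pool lay far from the other 3 by Dixon's test, and chance flags about 1 in 20 groups. TLX1 pool 4 was the distant pool in 5 of them, control pool 4 in 2, and 4 other pools in 1 each. In TLX1 pool 4, Tlr2 was high at DN1 (130, against 47.15 to 51.14 in the other TLX1 pools), as was Sirpa (224.7, against 85.37 to 94.35). In the same pool Ctsg was high at DN2 (252, against 153 to 160.1), Csf2ra was low at DN2 (39.33, against 116.5 to 132.1) and Cybb was high at DN3 (23.39, against 3.238 to 4.513). In control pool 4, Elane was low at DN1 (24.44, against 128.7 to 144.1 in the other control pools) and S100a8 was low at DN2 (5.207, against 68.96 to 100.3). Ctss was low in control pool 3 at DN1 (1194, against 2995 to 3185), Mpo high in control pool 2 at DN2 (92.01, against 81 to 82.08), Tlr2 low in TLX1 pool 1 at DN2 (42.94, against 50.96 to 51.89) and Tlr9 low in TLX1 pool 3 at DN3 (1.928, against 13.45 to 15.51).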

How the results depend on the processing

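The counts of members called lower kept within 1.5 times of 27, 18 and 28 in all settings run (21 to 30 for DN2 against DN1, 12 to 20 for DN3 against DN2 and 22 to 31 for DN3 against DN1), except for the 8 members called for DN3 against DN2 in control pools alone. The count called higher at DN2 than at DN1 was 1 with each array centred on its median and in control pools alone, and 0 to 1 with single pools left out. With an offset of 32 before log2 the median differences of the members were -1.83 for DN2 against DN1, -0.54 for DN3 against DN2 and -2.44 for DN3 against DN1. The difference of Csf2ra between DN3 and DN1 became 0.023 with quantile normalization, 0.15 with median centring, 0.10 without TLX1 pool 4 and 0.30 in control pools alone, and that of Tlr2 became 0.052, 0.14, 0.077 and 0.12 in the same settings. With single pools left out it ran from -0.14 to 0.096 for Csf2ra and from -0.13 to 0.077 for Tlr2. The DN1 fold change of Csf2ra was -0.12 as the median over its probe sets, and with the RNA integrity index as a covariate Cd68 (0.27) and Siglech (1.07) were above 0 at DN3. Members called between TLX1 and control stayed at 0 in all 21 alternatives. Those at the study's thresholds with TLX1 higher at DN1 ran from 0 to 7, with no share of all probe sets counted beside them. With same-numbered pools as a replicate block, 0 members were called at DN1, 0 at DN2 and 0 at DN3. Without the pool as a block the stage fits called 27, 16 and 28 members lower. The share of all probe sets called between stages was not counted in any of the alternative settings. Whether these counts of members keep their distance from that share therefore cannot be told. The cause of these shifts was not tested. Signals near 13.81 and below, as for Tlr9, Cebpa, Prtn3 and Siglech after DN1, limit what the arrays can rank.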
